A study of Mus musculus with 20 samples.

Results

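The response of wild-type BV-2 cells to interferon gamma (IFNγ) was described over all genes from 10 of the 20 libraries of the series: 5 of cells kept in medium alone (vehicle) and 5 of cells given IFNγ at 10 ng/mL, both for 48 h. BV-2 is an immortalised mouse microglial line. The cells here were the parental wild type with no engineered allele, grown in DMEM with 10% fetal bovine serum, and the other 10 libraries came from a derivative labelled as an RGS10 knockout under the same conditions. Poly(A)-enriched RNA was sequenced, and reads were counted per gene. Libraries were chosen by genotype and treatment alone, and no measured value entered that choice. By label, replicates 1 to 3 of each group were batch 1, replicate 4 was batch 2 and replicate 5 was batch 3. The labels call the replicates biological without saying how cultures were split, and all came from 1 line. The p-values therefore speak to the variation among these libraries, in effect among 3 batches, part of which may be technical. Within batch 1 the replicates of a group were close but differed by more than sampling noise (chi-squared per degree of freedom 2.98 to 9.85 between pairs). Counts per library ran from 15866749 to 29157740. Levels are CPM, counts scaled to a common library size after TMM normalisation, always listed in the order of replicates 1 to 5, and changes are log2 of IFNγ over vehicle ± SE from an edgeR model with batch as a term.

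The IFNγ libraries of batches 2 and 3 stood apart from the rest. Their library scaling factors were 0.635 and 0.764, against 1.01 to 1.10 for the other 8 libraries. Nuclear RNAs, one sign of RNA quality, also stood high there: Malat1, a nuclear long noncoding RNA, read 81.5, 68.3, 63.8, 152 and 88.8 CPM under vehicle and 370.1, 361, 338, 2389 and 1251 CPM with IFNγ. Values within each batch are therefore given beside the fitted ones, and the part of RNA quality in any result was not tested. The cells carried the markers of their label: the 12 microglia and macrophage markers summed to 5519 to 7752 CPM under vehicle and 11059 to 18630 CPM with IFNγ, and each was read. Markers of B cells and NK cells summed to at most 0.872 and 1.57 CPM. Neutrophil markers summed to 0.518 to 2.35 CPM under vehicle and 4.39 to 10.1 CPM with IFNγ, neuron markers to 5.6 to 8.86 and 7.24 to 27.4 CPM, dendritic cell markers to 15.5 to 20.2 and 18.7 to 101 CPM, and endothelial and fibroblast markers to 25.1 to 37.8 and 40.1 to 43.9 CPM. Members that rose in these lists were S100a8, Tubb3, Map2 and Clec9a, and their part in the results was not tested. Cd3e and Cd3g of T cells, Ncr1 and Prf1 of NK cells, S100a9 of neutrophils and Rbfox3 of neurons had no read in these 10 libraries. The 8 T cell markers reached 110 to 203 CPM in all, nearly all of it Cd28 (131 ± 35.2 to 112 ± 3.39 CPM, not called).

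IFNγ is made by T cells and NK cells and signals through a receptor of paired chains, IFNGR1 and IFNGR2, that carry the kinases JAK1 and JAK2. The kinases phosphorylate STAT transcription factors, which enter the nucleus as dimers and bind gamma-activated sites (GAS) in promoters. A second wave follows through factors that this first step induces, IRF1 and IRF8 among them, which bind interferon-stimulated response elements (ISRE). In macrophages and microglia this programme is known for antigen presentation, guanylate-binding proteins and immunity-related GTPases that attack intracellular pathogens, and a switch of metabolism towards nitric oxide and itaconate.

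The promoters below are those of 8 genes described in the results whose last 100 bases before the start hold either element: IRF1 and its feedback partner SOCS1, 5 GTPases, and the death receptor Fas as an example with a small change. They are RefSeq windows on GRCm38.p6, each ending at the base before the transcript start and read 5′ to 3′ on the strand of the gene. Capitals mark matches to TTCNNNGAA (GAS) or GAAANNGAAA (ISRE), searched on both strands. An ISRE on the other strand reads as its reverse complement.
Irf1, chr11:53769914-53770013, plus strand: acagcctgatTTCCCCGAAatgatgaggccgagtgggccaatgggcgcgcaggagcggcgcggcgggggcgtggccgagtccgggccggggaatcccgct
Socs1, chr16:10785537-10785636, minus strand: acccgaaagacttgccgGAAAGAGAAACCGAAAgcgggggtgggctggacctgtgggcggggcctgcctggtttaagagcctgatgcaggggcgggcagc
Gbp2, chr3:142620563-142620662, plus strand: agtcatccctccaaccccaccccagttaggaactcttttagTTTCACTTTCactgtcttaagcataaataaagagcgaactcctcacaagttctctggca
Gbp5, chr3:142496834-142496933, plus strand: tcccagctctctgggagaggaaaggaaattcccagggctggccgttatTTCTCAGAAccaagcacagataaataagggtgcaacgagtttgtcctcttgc
Irgm1, chr11:48871421-48871520, minus strand: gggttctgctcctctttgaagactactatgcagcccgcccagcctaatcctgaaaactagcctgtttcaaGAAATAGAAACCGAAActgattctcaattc
Igtp, chr11:58199456-58199555, plus strand: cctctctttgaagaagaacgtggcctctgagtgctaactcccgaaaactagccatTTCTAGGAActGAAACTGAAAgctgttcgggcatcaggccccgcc
Tgtp1, chr11:48992247-48992346, minus strand: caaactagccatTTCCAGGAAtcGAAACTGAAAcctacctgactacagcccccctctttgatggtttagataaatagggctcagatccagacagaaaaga
Fas, chr19:34290559-34290658, plus strand: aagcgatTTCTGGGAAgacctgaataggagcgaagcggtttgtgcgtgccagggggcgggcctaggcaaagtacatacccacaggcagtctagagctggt
Igtp and Tgtp1 share the same order: a GAS at 45 and 88 bases before the start, and an ISRE that begins 11 bases further on, at 34 and 77. Within the 100 bases shown, Irf1, Gbp5 and Fas held a GAS alone, at 90, 52 and 93 bases, and Gbp2 an ISRE alone. Further upstream Gbp5 held an ISRE at 165 bases and a second GAS at 245. In Irgm1 and Socs1 a pair of ISRE matches overlapped in the letters GAAA, 6 bases apart.

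Promoter windows were found for 9441 of 11740 tested protein-coding genes (80.4%), and 250 bases before the start were searched. A gene was counted when any of its windows held a match. A GAS match was held by 8.01% of genes called higher with IFNγ, 6.76% of those called lower and 6.82% of those called neither. ISRE matches were in 4.65%, 2.66% and 3.25% of the same classes. Among genes with a single window the GAS shares were 6.2%, 5.8% and 6.2%, so genes called higher did not exceed those called neither. The ISRE shares of these genes were 4.2%, 2.0% and 2.8%. Counted per window and not per gene, the shares over all 32851 windows of that length were 7.02% and 2.98%. A GAS match can share bases with an ISRE or an AP-1 match. AP-1 matches (TGANTCA) were in 7.06%, 4.48% and 5.30%, and in 6.75% of all windows. Of 21 class I antigen presentation genes with a window, 15 (71.4%) held the CCAAT box (CCAAT), as did 20 of 26 mitosis genes (76.9%). Its share was 40.8% of all tested genes and 33.9% of all windows. Genes called higher, lower and neither were alike in it, at 40.6%, 42.25% and 39.7%. The other lists searched had windows for under 80% of their members and are not given, so the box is not shown to be particular to these 2 lists. The shares are given with no test. A match is a run of letters and not a bound site, and most called genes held neither element in this window. Tap1, Psmb9, Cxcl9, Cd274, Upp1 and Acod1, all called higher, were among those that held neither.

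Of 13755 genes tested, 58.9% were called at an adjusted p under 0.05, 29.0% higher and 29.9% lower, and the median change of all tested genes was 0.01 log2. With plain library totals in place of TMM scaling that median was −0.21 log2, and 36.7% of calls were higher against 49.2%. The counts of gene groups below are to be read against these shares. Large changes were mostly rises: 410 genes rose by more than 3 log2 and 125 fell by as much, and beyond 5 log2 there were 113 and 15. The 410 genes took 0.476% to 0.763% of all counts in vehicle libraries and 5.97% to 6.35% in batch 1 with IFNγ, with 11.0% and 11.5% in batches 2 and 3. Genes that fell by more than 1 log2 held 18.6% to 21.4% of counts under vehicle and 4.21% to 8.78% with IFNγ. Across tested genes the change in batch 1 correlated with that in batch 2 at r = 0.652 and with that in batch 3 at r = 0.715, a description over genes from separate libraries. All 3 batches gave the same sign for 87.6% of genes called higher and 92.0% of those called lower. Of the 45 tested genes of a panel of 46, chosen with earlier results of these data known, 41 were called, against 58.9% of all tested genes. In the panel 33 reached the smallest p that an exact two-sided permutation test of 5 against 5 libraries can give, 0.0079 on log2(CPM + 1). A gene reaches it when its groups do not overlap, as held for 18.0% (IFNγ higher) and 18.2% (lower) of all tested genes. Given how the panel was chosen, its counts are no independent support.

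**Figure D1:**
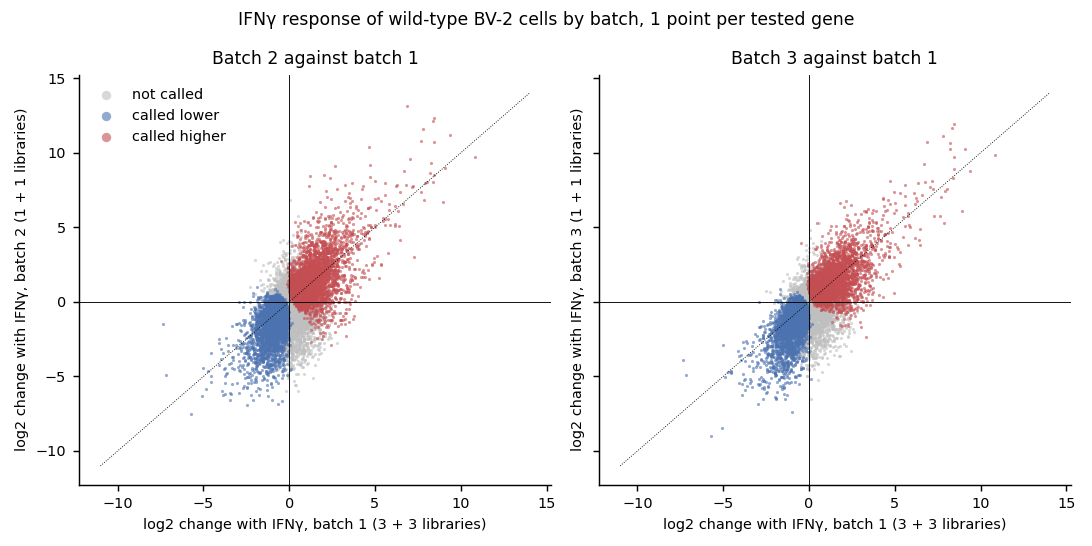
Log2 change with IFNγ within batch 1 (x axis, 3 libraries a group) against batch 2 and batch 3 (y axes, 1 library a group), 1 point per tested gene, coloured by the call of the model over all batches. Genes called higher lie mainly above 0 in every batch, and many large rises lie above the dotted line of equal change in batches 2 and 3.

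A small set of genes was read with IFNγ alone. Besides Clec9a and Ubd, 7 genes had no read in any vehicle library and at least 1 CPM in each IFNγ library, and all 9 were picked out by that criterion after their values were seen. Gm4841, a predicted gene of the immunity-related GTPase family, read 12, 13.5, 14.4, 19.3 and 17 CPM with IFNγ, at least 494-fold higher against a floor of 3 counts over the vehicle group. Gbp2b, which encodes guanylate-binding protein 1, read 1.49, 1.54, 1.55, 10.4 and 3.09 CPM, at least 118-fold higher. The phospholipase Pla2g16 read 1.66, 1.11, 1.01, 6.86 and 6.06 CPM, and the hair follicle protein gene Tchh 2.04, 2.19, 1.86, 6.78 and 6.37 CPM. In these last 3 genes the libraries of batches 2 and 3 stood above batch 1, whereas the predicted genes 1700017M07Rik (5.19, 3.51, 3.06, 3.82 and 4.58 CPM), Gm11992 and the pseudogene Olfr753-ps1 varied less. In the other direction Gm20619 was the single gene with at least 1 CPM in each vehicle library (1.13, 1.06, 1.93, 1.21 and 1.23 CPM) and no read with IFNγ.

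The receptor chains did not move together. Ifngr1, the ligand-binding chain, read 55.9, 53.1, 61.9, 56.5 and 63.6 CPM under vehicle and 34.6, 35.7, 33.8, 30.4 and 37.7 CPM with IFNγ, a change of −0.76 ± 0.11 log2 (edgeR adjusted p = 1.1e-05). Every IFNγ library lay below every vehicle one. Ifngr2, the signalling chain, was not called (−0.02 ± 0.12 log2, edgeR adjusted p = 0.9) and moved in opposite directions in batches 1 and 3 (−0.25, 0.00074 and 0.62 log2 in batches 1 to 3). Of 24 tested genes of receptor, JAK, STAT and feedback, 12 rose and 4 fell, with a median of 0.31 log2.

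The genes of JAK2, STAT2 and STAT3 rose. Jak2 went from 33.3, 31.5, 34.1, 54.8 and 63.7 CPM to 90.02, 91, 84.3, 288 and 283 CPM (1.82 ± 0.22 log2, edgeR adjusted p = 1.2e-06), and the libraries of batches 2 and 3 were the highest in both groups. Stat2 read 77.4, 80.6, 73.9, 51.3 and 50.9 CPM under vehicle and 298, 288, 284, 178 and 219 CPM with IFNγ (1.93 ± 0.17 log2, edgeR adjusted p = 2.4e-08), with like changes within batches 1 to 3 (1.91, 1.79 and 2.1 log2). Stat3 went from 156, 156, 151, 180.4 and 190.2 CPM to 343, 329.8, 325, 460 and 443 CPM (1.18 ± 0.1 log2), and its groups did not overlap. Socs1, the inhibitor that closes the loop on JAK kinases, read 2.91, 1.29, 2.43, 1.38 and 0.897 CPM and then 43.8, 40.9, 47.1, 48.3 and 123 CPM (4.85 ± 0.4 log2, edgeR adjusted p = 1.2e-08), with batch 3 the highest library.

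Among interferon regulatory factors the response was split. Irf1 read 35.6, 33, 41.4, 28.7 and 24.3 CPM under vehicle and 774, 755, 779, 1533 and 2068 CPM with IFNγ, 33.1-fold (5.05 ± 0.34 log2, edgeR adjusted p = 6.4e-10). Irf8, a lineage factor of microglia, read 98.4, 102, 119, 122 and 141 CPM and then 541, 551, 535, 3687 and 1957 CPM (3.22 ± 0.35 log2), and its rise within batches was 2.35, 4.92 and 3.79 log2. Batf2, an AP-1 family partner of IRF1, had close IFNγ libraries, from 3.98, 3.55, 4.41, 2.48 and 2.8 CPM to 48, 49.8, 49, 59.3 and 45.5 CPM (3.89 ± 0.28 log2). Irf4, tied to alternative activation, fell from 8.77, 8.29, 7.89, 11.5 and 11.5 to 4.94, 3.87, 4.69, 2.18 and 4.39 CPM (−1.32 ± 0.29 log2, edgeR adjusted p = 0.0007). Of 13 tested genes of the IRF and BATF list, which also holds the class II regulator Ciita, 8 rose and 3 fell. The groups did not overlap for 7 of those that rose and 2 of those that fell, where 18.0% and 18.2% of all tested genes had groups that did not overlap with IFNγ higher or lower.

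**Figure D2:**
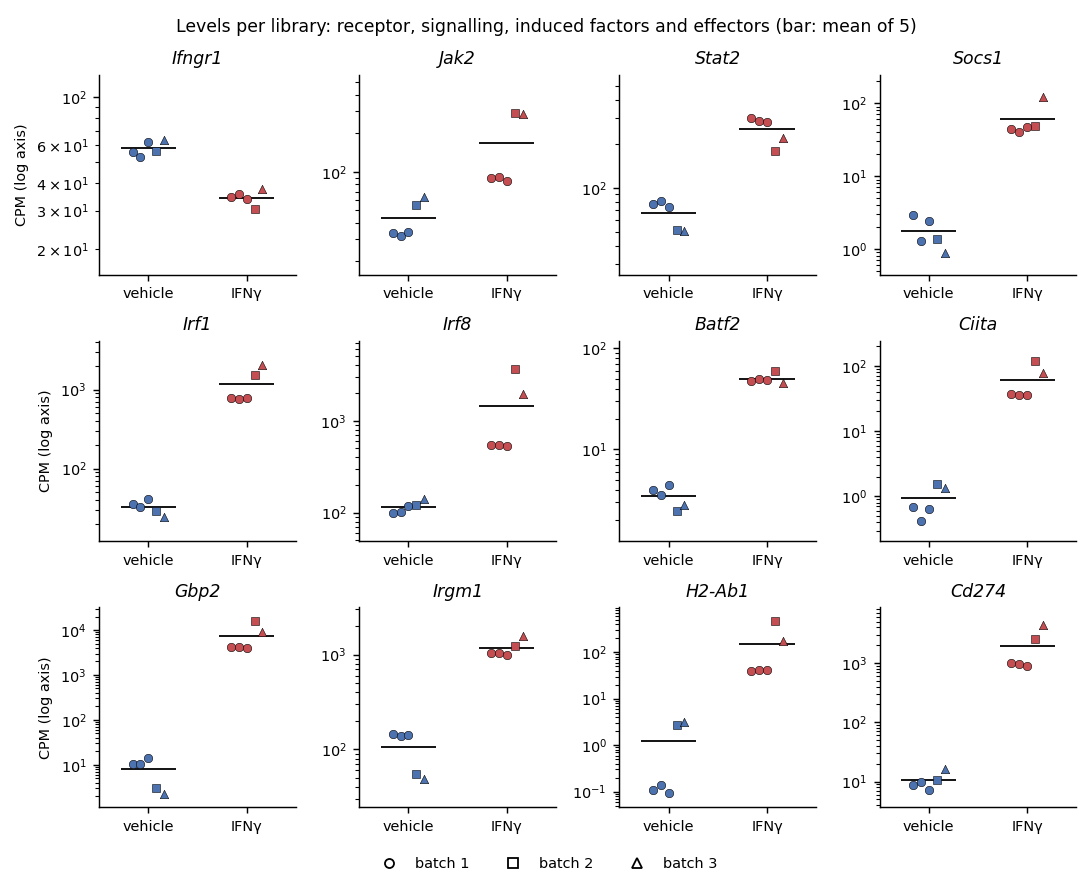
CPM (log axis) of 12 genes in each vehicle (blue) and IFNγ (red) library, with the mean of 5 as a bar and the batch as the symbol. Ifngr1 is lower with IFNγ, the other 11 genes are higher in every IFNγ library, and the squares and triangles of batches 2 and 3 leave the batch 1 cluster in most panels.

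Most of the transcription factors that cells use for rapid responses rose. Of 24 tested AP-1, EGR, KLF and MAF genes, 16 rose and 2 fell, with a median of 1.49 log2 and medians of 1.35, 1.18 and 1.28 log2 in batches 1 to 3. Klf6 had close values in all batches, 127, 137, 130.3, 125 and 146 CPM under vehicle and 618, 602, 586, 559.6 and 634 CPM with IFNγ (2.17 ± 0.17 log2, edgeR adjusted p = 3.1e-09). Fos, an AP-1 subunit, rose from 7.6 ± 0.978 to 90.2 ± 47.6 CPM (mean ± SD, n = 5), and Atf3, a stress-induced repressor, rose by 2.85 ± 0.25 log2. Klf2, which restrains myeloid activation, fell from 4.2, 4.65, 6.42, 13.6 and 16.3 to 2.85, 3.93, 3.49, 0.936 and 1.24 CPM (−1.94 ± 0.48 log2, edgeR adjusted p = 0.002), with −0.55, −3.74 and −3.63 log2 within batches 1 to 3. Myc rose from 2.15, 2.17, 1.88, 1.9 and 1.63 to 8.21, 8.55, 7.13, 2.03 and 7.05 CPM (1.88 ± 0.54 log2, edgeR adjusted p = 0.0056), but the batch 2 library stayed at its vehicle level.

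Factors of the macrophage lineage went both ways, 8 up and 7 down of 22, or 5 and 7 with plain library totals, shares close to those of all tested genes. Id2, an inhibitor of helix-loop-helix factors, read 41, 39.7, 36.9, 76.2 and 86.4 CPM and then 186, 187, 184, 746 and 595 CPM (2.52 ± 0.32 log2). Mef2c, a factor of homeostatic microglia, fell from 189.8, 205, 180.2, 149 and 154 to 39.7, 36.4, 32.4, 29.2 and 24.8 CPM (−2.45 ± 0.21 log2, edgeR adjusted p = 1.1e-08), and all 3 batches gave a like value (−2.41, −2.35 and −2.63 log2). Spi1, which encodes the lineage factor PU.1, was not called (0.15 ± 0.22 log2, edgeR adjusted p = 0.55): it was lower with IFNγ in batch 1 and higher in the others (−0.38, 0.96 and 1.12 log2).

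All 11 guanylate-binding proteins and all 13 immunity-related GTPases were tested and rose, with groups that did not overlap for 11 and 12. The median of the guanylate-binding proteins was 7.54 log2, or 6.88 log2 with Gbp2b at its lower bound, and that of the immunity-related GTPases was 4.15 log2. Gbp2, whose promoter is shown above, read 10.5, 10.2, 13.8, 2.99 and 2.24 CPM and then 4186, 4097, 3905, 15992 and 9008 CPM. Its vehicle level was lower and its IFNγ level higher in batches 2 and 3, and the changes within batches 1 to 3 were 8.47, 12.34 and 11.92 log2. Gbp5, which assembles coats on bacteria and feeds inflammasomes, read 0.861, 1.38, 1.19, 0.346 and 0.336 CPM and then 127, 126, 119, 193 and 261 CPM (7.54 ± 0.4 log2, edgeR adjusted p = 3.4e-11). Irgm1, a regulatory GTPase that guards the cell's own membranes, was already read at 147, 140.1, 142, 54.9 and 48.9 CPM under vehicle and reached 1048, 1032, 987, 1221 and 1576 CPM (3.59 ± 0.28 log2). Igtp, another regulatory member, read 46.4, 43.1, 50.5, 23.9 and 20.2 CPM and then 600.4, 585, 581, 613 and 685 CPM (4.15 ± 0.24 log2), and its IFNγ libraries lay within a narrow band across batches. Tgtp1, an effector member, read 0.108, 0.184, 0.0918, 0 and 0.0561 CPM and then 76.6, 71.6, 72.3, 148 and 121 CPM (9.98 ± 0.52 log2). Fas, by contrast, moved little, from 4.41, 3.78, 3.81, 6.51 and 7.45 to 5.02, 4.23, 5.73, 15.9 and 15.4 CPM (0.72 ± 0.24 log2, edgeR adjusted p = 0.013), its groups overlapped (exact two-sided permutation p = 0.25), and its call held in 17 of 24 alternative settings. Near-identical copies such as Tgtp1 and Tgtp2 may share reads, since the sources used here do not give the counting rule.

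Genes called antiviral interferon-stimulated genes, which type I interferon also drives, were divided. Of 46 listed, 44 were tested, 22 rose and 8 fell, with a median of 0.51 log2. In batch 1 alone 23 rose and 16 fell, and in batches 2 and 3 alone 22 and 2. Ifi205, a DNA-sensing family member, rose from 1.29, 1.89, 2.66, 0.115 and 0.448 to 54.8, 51.9, 46.6, 119 and 149.9 CPM (6.03 ± 0.56 log2, edgeR adjusted p = 4e-08), and the ISG15 ligase Herc6 from 8.47 ± 1.97 to 47.3 ± 13.4 CPM. Oas2, an RNA-activated synthetase, fell from 125, 126, 122, 75.8 and 85.8 to 57.4, 58.7, 55.1, 26.1 and 33.6 CPM (−1.24 ± 0.12 log2, edgeR adjusted p = 6.2e-08). Ddx58, which encodes the RNA sensor RIG-I, fell by 1.19 ± 0.18 log2. Neither of these had overlapping groups.

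Nearly all class I antigen presentation genes rose. Of 24 tested genes 23 rose, 22 of them with groups that did not overlap, with a median of 1.52 log2 (1.41, 1.96 and 1.79 log2 in batches 1 to 3), and the chaperone calnexin (Canx) fell (−0.48 ± 0.14 log2). Tap1, a chain of the peptide transporter, read 136, 131, 167, 95.4 and 130.3 CPM and then 721, 673, 697, 1051 and 985 CPM (2.66 ± 0.2 log2, edgeR adjusted p = 2.9e-09). Tapbpl, the TAPBPR peptide editor, rose from 14.9, 16.4, 17.1, 7.03 and 5.27 to 179.8, 186, 174, 168 and 221 CPM (4.03 ± 0.24 log2), and the nonclassical H2-T23 from 72.3, 63.5, 76.5, 141 and 167 to 939, 909.9, 921, 2239 and 2098 CPM (3.76 ± 0.17 log2). H2-K1, a classical heavy chain, rose by 2.02 ± 0.16 log2 from a level already near 959.7 ± 202 CPM. Nlrc5, the class I transactivator, rose by 1.79 ± 0.14 log2, from 96.4, 107, 99.1, 85 and 87.3 to 343, 334, 326, 387 and 265 CPM.

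Proteasome subunits that IFNγ exchanges and those that it replaces were compared. Psmb9, an immunoproteasome subunit, read 43.2, 42.6, 53.8, 39.3 and 48 CPM and then 129.9, 134, 130.4, 111 and 133 CPM (1.49 ± 0.15 log2, edgeR adjusted p = 8.3e-08), with like changes in all batches (1.51, 1.5 and 1.46 log2). Psmb6, the constitutive subunit in the same place of the ring, was at 322 ± 40.8 and 463 ± 187 CPM (0.44 ± 0.18 log2, edgeR adjusted p = 0.038). Its groups overlapped (exact two-sided permutation p = 0.063), and its call held in 13 of 24 settings. Of 34 constitutive proteasome genes 3 rose and 9 fell, with a median of −0.16 log2 and opposite signs by batch (−0.42, 0.06 and 0.35 log2 in batches 1 to 3). The number lower depended on the libraries: 31 fell in batch 1 alone, 18 without batch 3, 20 with plain library totals and 1 in batches 2 and 3 alone. Among those that rose was Pomp, the maturation factor that assembles new proteasomes (0.97 ± 0.2 log2, edgeR adjusted p = 0.00044).

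Most class II genes rose, and their levels with IFNγ differed widely between batches. Of 13 tested genes 9 rose and none fell, with a median of 2.27 log2 (1.6, 2.99 and 2.45 log2 in batches 1 to 3). Ciita, the master regulator of class II, read 0.7, 0.415, 0.642, 1.55 and 1.35 CPM and then 37.6, 36.2, 36.3, 120.2 and 77.7 CPM (6 ± 0.32 log2, edgeR adjusted p = 3e-11). H2-Ab1, a class II beta chain, read 0.108, 0.138, 0.0918, 2.71 and 3.14 CPM under vehicle and 38.5, 40.9, 41.8, 461 and 175 CPM with IFNγ (6.88 ± 0.45 log2). H2-Eb1 had the same shape, 48.6, 48.5, 52.2, 1068 and 255 CPM with IFNγ, with batch 2 far above batch 1. Cd74, the invariant chain, rose from 145, 122, 138, 435 and 459 to 1428, 1523, 1439, 9309 and 3724 CPM (3.58 ± 0.3 log2). The order of libraries was the same in all of these genes under IFNγ, batch 2 above batch 3 above batch 1, and the changes within batches 1 to 3 were 7.65, 7.37 and 5.76 log2 for H2-Ab1, 7.69, 10.78 and 7.04 log2 for H2-Eb1 and 3.44, 4.42 and 3.02 log2 for Cd74.

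Ligands that engage T cells rose as well: 15 of 20 tested checkpoint and costimulatory genes rose and none fell, with a median of 1.94 log2. Cd274, which encodes PD-L1, read 8.61, 9.77, 7.34, 10.7 and 16.1 CPM and then 998, 953, 892, 2515 and 4341 CPM, 153-fold (7.26 ± 0.37 log2, edgeR adjusted p = 1.5e-11). Slamf7, a self-ligand receptor, read 0.592, 1.38, 1.01, 4.49 and 5.61 CPM and then 277, 271, 258, 1226 and 1088 CPM (7.93 ± 0.25 log2), and Slamf8 rose from 16 ± 2.86 to 738 ± 184 CPM. Batches gave like changes for Slamf7 (8.02, 8.06 and 7.58 log2) although its levels differed several-fold between them.

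Chemokines and cytokines mostly rose, 13 of 19 tested chemokines (of 25 listed) and 19 of 28 tested cytokines and antagonists, with 2 and 2 lower. Cxcl9 and Cxcl10, which bind the same receptor CXCR3, had different library patterns. Cxcl9 read 0.108, 0.184, 0.413, 0 and 0 CPM and then 33.9, 34.7, 37.1, 807 and 155 CPM (9.53 ± 0.69 log2, edgeR adjusted p = 1.9e-09), whereas Cxcl10 read 72.1, 68.9, 70.4, 10.9 and 14.6 CPM and then 131, 125, 135, 23.3 and 121 CPM (1.34 ± 0.3 log2, edgeR adjusted p = 0.0007), with overlapping groups (exact two-sided permutation p = 0.13). The batch 2 library with IFNγ held the highest Cxcl9 and the lowest Cxcl10 level of the 5. The chemokine Ccl9 and platelet factor 4 (Pf4) changed by −1.59 ± 0.18 and −0.77 ± 0.2 log2. Il18bp, the decoy of interleukin-18, rose from 1.08, 0.599, 0.734, 2.07 and 0.673 to 17.7, 16.8, 17.1, 51.2 and 43.7 CPM (4.76 ± 0.26 log2), and the alarmin Il1a from 6.57, 4.79, 5.78, 9.39 and 18.3 to 72.7, 71.8, 64.7, 97.5 and 174 CPM (3.48 ± 0.19 log2). Osm, an interleukin-6 family cytokine, rose by 2.6 ± 0.17 log2.

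Genes of innate sensing went both ways. In the list of 28 genes for Toll-like receptors and NF-κB, 14 rose and 7 fell. Tlr2, a sensor of bacterial lipoproteins, fell from 292, 294, 279.5, 87.9 and 86.4 to 44.8, 42.9, 49.1, 6.55 and 18.8 CPM (−2.76 ± 0.26 log2, edgeR adjusted p = 3.9e-08), and the RNA sensor Tlr8 from 11.4 ± 4.86 to 1.9 ± 1.59 CPM (−2.98 ± 0.45 log2). Tnfaip3, which encodes the NF-κB brake A20, rose from 17.7, 17.7, 17.6, 15.1 and 22.9 to 137, 123, 120.3, 169 and 298 CPM (3.1 ± 0.34 log2). Among Fc receptors 6 of 9 rose: Fcgr4, an activating receptor for IgG, read 25.8, 24.2, 28.5, 42.4 and 46.1 CPM and then 392, 378, 382, 561 and 543 CPM (3.77 ± 0.15 log2, edgeR adjusted p = 1.1e-12), with like changes in the batches (3.88, 3.72 and 3.56 log2). Clec7a, the beta-glucan receptor dectin-1, rose by 4.61 ± 0.34 log2, and Mrc1, the mannose receptor of alternatively activated cells, fell from 121, 147, 129.6, 60.3 and 104 to 15.2, 15.8, 14.6, 7.09 and 8.48 CPM (−3.22 ± 0.2 log2).

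Cell death genes rose on both sides of the balance. Of 33 tested apoptosis and necroptosis genes 21 rose and 5 fell, with a median of 0.72 log2. Bcl2a1d, an anti-apoptotic BCL2 relative, read 6.4, 6.36, 7.89, 4.26 and 5.94 CPM and then 70.1, 69.7, 69.3, 66.7 and 68.9 CPM (3.48 ± 0.16 log2, edgeR adjusted p = 5.2e-12). Its 5 IFNγ libraries were nearly equal, but it has near-identical copies. Mlkl, which executes necroptosis, rose from 75.4, 80.6, 86.2, 43.7 and 44.1 to 186, 193, 188, 161 and 205 CPM (1.54 ± 0.13 log2). Inflammasome and pyroptosis genes were mixed, 5 up and 4 down of 14, with a median of 0.34 log2. Among them Casp4, the sensor of cytosolic lipopolysaccharide, rose from 37.8, 32.8, 30.4, 19.2 and 21.4 to 108, 106, 101, 87.8 and 170.2 CPM (2.04 ± 0.17 log2). The death receptor adaptor Fadd and the executioner Casp6 fell, with −0.87 ± 0.26 and −1.21 ± 0.16 log2.

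Genes of arginine use changed in both directions. Nos2, inducible nitric oxide synthase, read 5.92, 5.71, 4.82, 72.4 and 209 CPM and then 1469, 1251, 1220.5, 8452 and 8268 CPM (7.11 ± 0.41 log2, edgeR adjusted p = 1e-10). Its vehicle level was much higher in batches 2 and 3, and the change within batches was 7.88, 6.86 and 5.31 log2. Ass1, which recycles citrulline to arginine, read 28.1, 26.4, 34.3, 33.2 and 52.7 CPM and then 53.9, 53.4, 51.1, 351 and 61.9 CPM (1.35 ± 0.39 log2, edgeR adjusted p = 0.0066), where the batch 2 library alone stood far above the rest. Arg1, the competing arginase, was not called (0.61 ± 0.73 log2, edgeR adjusted p = 0.48), and its sign was not the same over batches (2.3, −0.89 and −2.33 log2). Polyamine genes moved apart: Srm, spermidine synthase, fell from 645, 599.6, 652, 272 and 257 to 148, 151, 167, 24.6 and 35.6 CPM (−2.42 ± 0.28 log2), and Sat1, which tags polyamines for export, rose from 153, 135, 160.1, 272 and 317 to 576, 579, 589, 4301 and 2512 CPM (2.6 ± 0.33 log2). Gatm, which takes arginine into creatine, fell by 1.65 ± 0.21 log2. Over the list of 19, 6 rose and 8 fell.

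Acod1 rose while most genes of the itaconate and citric acid cycle list fell. Acod1, the enzyme that makes itaconate from a cycle intermediate, read 156, 143, 147, 70.8 and 146 CPM and then 1718, 1643, 1545, 3577 and 4732 CPM (4.32 ± 0.33 log2, edgeR adjusted p = 3.8e-09). Of 32 genes in this list, which also holds enzymes beside the cycle such as the cytosolic Idh1, 22 fell and 2 rose, with a median of −0.73 log2. Idh1, cytosolic isocitrate dehydrogenase, fell from 235, 239, 217, 145 and 153 to 35.2, 37.8, 34, 10.5 and 28.8 CPM (−2.81 ± 0.24 log2, edgeR adjusted p = 1.6e-08), Fh1, fumarase, from 190.1, 196, 216, 165 and 154 to 48.4, 49.2, 45.7, 49.8 and 33.7 CPM (−2.02 ± 0.18 log2), and Me2, mitochondrial malic enzyme, by −2.04 ± 0.15 log2. The fall of the list was deeper in batch 1 than in the others (medians −0.96, −0.31 and −0.62 log2 in batches 1 to 3), with 29 members lower without batch 2 and 12 lower in batches 2 and 3 alone. Of 36 nuclear-encoded respiratory chain genes 19 fell and 1 rose, at a median of −0.43 log2 (−0.52, 0.06 and −0.42 log2 in batches 1 to 3). In batches 2 and 3 alone 3 of them fell and 4 rose.

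Glycolysis did not move as a block: 4 genes rose and 9 fell of 24, and 14 fell with plain library totals. Hk3, the hexokinase of myeloid cells, read 126, 133, 144, 182 and 229 CPM and then 1177, 1172, 1162, 2374 and 2040.4 CPM (3.24 ± 0.14 log2, edgeR adjusted p = 2.7e-12). Pfkfb3, which makes the activator of phosphofructokinase, rose by 3.15 ± 0.35 log2. The phosphofructokinase subunits Pfkm and Pfkl themselves fell, Pfkm from 41.5, 43.7, 47.4, 72.1 and 94.8 to 12, 13.7, 12.8, 20.3 and 11.9 CPM (−2.07 ± 0.19 log2) and Pfkl by −1.97 ± 0.24 log2. The glucose transporter Slc2a1 rose from 121 ± 61 to 368 ± 277 CPM (1.49 ± 0.21 log2).

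Enzymes of nucleotide synthesis were lower and uridine phosphorylase was higher. Of 45 pentose phosphate and nucleotide genes 29 fell and 6 rose, with a median of −1.2 log2 that was alike in the batches (−1.17, −1.11 and −1.34 log2). Impdh2, the rate-limiting enzyme of guanine nucleotide synthesis, fell from 509, 482, 512, 412 and 405 to 129.8, 133, 146, 69.9 and 52.8 CPM (−2.22 ± 0.2 log2, edgeR adjusted p = 2.5e-08). Paics of purine synthesis and Prps1, which makes the ribose donor, fell, with −1.49 ± 0.13 and −1.69 ± 0.16 log2. Upp1, uridine phosphorylase, went from 0.0538, 0, 0.0918, 0.115 and 0.617 CPM to 94.7, 88, 84.2, 483 and 306 CPM (10.24 ± 0.35 log2, edgeR adjusted p = 6.8e-14).

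Lipid genes fell on the synthetic side. Scd2, a stearoyl-CoA desaturase, fell from 1306, 1369, 1236, 968 and 780.2 to 93.9, 95.3, 84.1, 91.9 and 121 CPM (−3.5 ± 0.19 log2, edgeR adjusted p = 3.4e-11), and its IFNγ libraries were close to each other in all batches. Acat2 of the sterol pathway fell by 3.24 ± 0.23 log2, from 52.6 ± 23.6 to 5.47 ± 2.29 CPM. In the cholesterol list 18 of 23 fell and none rose, at a median of −1.05 log2, but the medians by batch were −1.39, −0.32 and −0.57 log2. In batches 2 and 3 alone 6 fell and 3 rose. The lipid droplet coat gene Plin2 and the lysosomal cholesterol carrier Npc2 rose by 3.15 ± 0.23 and 2.7 ± 0.25 log2. The cyclooxygenases went opposite ways: Ptgs2, the inducible form, from 12.9, 10.6, 7.62, 18.9 and 34.4 to 882, 766, 735, 4405 and 3840.3 CPM (6.71 ± 0.36 log2) and Ptgs1, the constitutive form, from 65.7, 66.6, 65.3, 73.9 and 104 to 10.1, 10.7, 10.9, 25 and 10.9 CPM (−2.5 ± 0.25 log2).

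**Figure D3:**
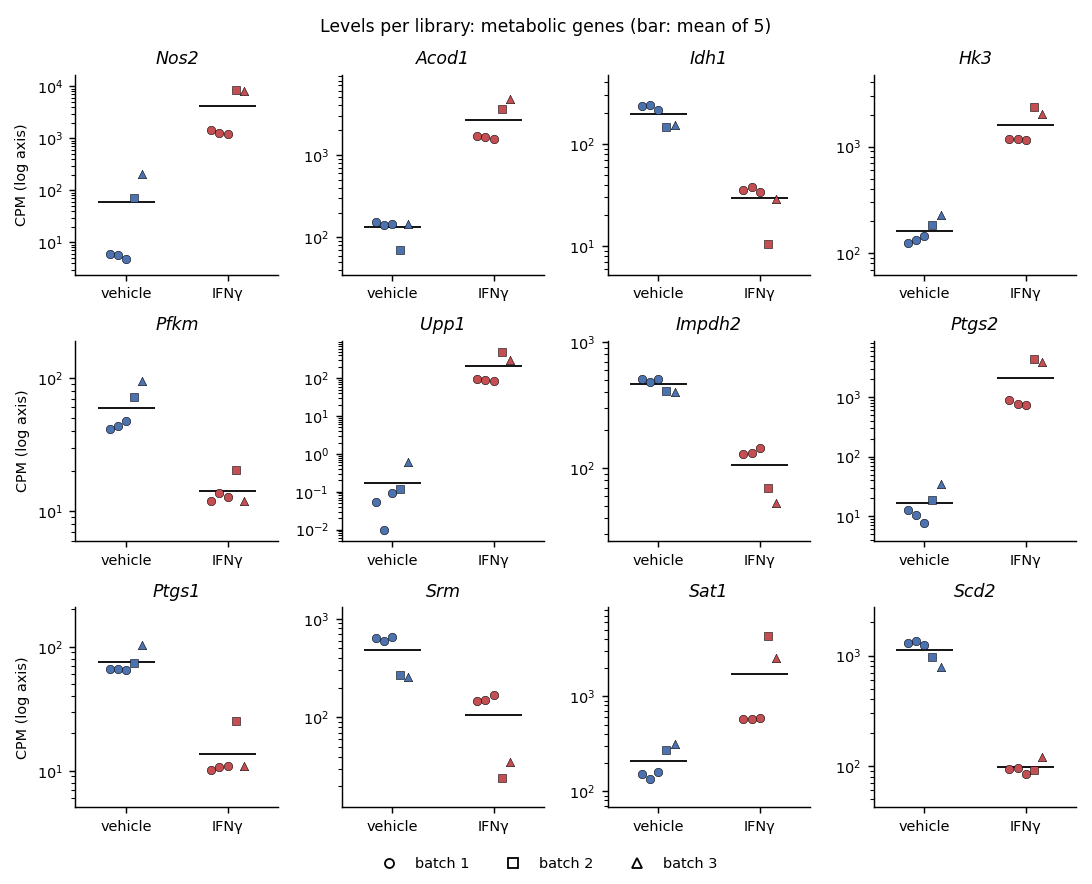
CPM (log axis) of 12 metabolic genes in each library, with the mean of 5 as a bar, the batch as the symbol and a level of 0 drawn at 0.01. Nos2, Acod1, Hk3, Upp1, Ptgs2 and Sat1 are higher and Idh1, Pfkm, Impdh2, Ptgs1, Srm and Scd2 lower in every IFNγ library.

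Iron genes divided evenly, 9 up and 8 down of 19, and 8 up and 9 down with plain library totals. Slc11a1, the NRAMP1 transporter that pumps metals out of phagosomes, rose from 191, 201, 212, 152 and 179 to 451, 436, 437, 712 and 792 CPM (1.55 ± 0.18 log2, edgeR adjusted p = 6.3e-07), and Hmox1, heme oxygenase, from 157, 157, 166, 316 and 355 to 1070.5, 1061, 1070.4, 2091 and 1964 CPM (2.69 ± 0.17 log2). Tfrc, the transferrin receptor, was not called (606, 686, 633, 253 and 316 CPM and 422, 417, 431, 227 and 217 CPM, −0.49 ± 0.23 log2, edgeR adjusted p = 0.069). Prdx1, a peroxide-reducing enzyme, rose from 571, 556, 565, 544 and 505 to 2885, 2780.5, 2585, 7478 and 7901 CPM (2.89 ± 0.29 log2). Kmo, the kynurenine hydroxylase, fell from 10.2, 9.77, 8.9, 2.76 and 2.35 to 0.213, 0.426, 0.349, 0 and 0 CPM (−4.98 ± 0.47 log2, edgeR adjusted p = 4e-08).

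Lysosomal genes rose broadly, 28 of 37 with 1 lower, at a median of 0.82 log2 (0.59, 1.58 and 1.04 log2 in batches 1 to 3). Gla, an alpha-galactosidase, varied little between libraries of a group: 133, 133, 143, 149 and 145 CPM and then 366, 350.3, 365, 463 and 437 CPM (1.49 ± 0.09 log2, edgeR adjusted p = 1e-10). Atp6v0d2, a subunit of the proton pump, rose from 7.59, 10.4, 8.77, 26.6 and 37.4 to 192, 185, 174, 484 and 309 CPM (4 ± 0.32 log2). Gusb, a beta-glucuronidase, was the member that fell (−1.32 ± 0.14 log2). In the autophagy list 14 of 29 rose and 3 fell, at a median of 0.31 log2, and 9 rose with plain library totals. The ones that rose included the cargo receptor Sqstm1, from 348, 334, 385, 549 and 504 to 1556, 1534, 1546, 1841 and 2274 CPM (2.06 ± 0.11 log2, edgeR adjusted p = 3e-11), and Gabarap and Gabarapl1 of the membrane conjugation system (1.22 and 1.38 log2). Pik3c3 and Pik3r4, the lipid kinase that starts autophagosomes and its partner, fell, with −0.67 ± 0.12 and −0.48 ± 0.15 log2.

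Most genes of the growth machinery fell. Ribosome biogenesis genes fell in 24 of 25 cases (median −1.08 log2), aminoacyl-tRNA synthetases in 17 of 18 (−0.89 log2) and heat shock proteins in 14 of 16 (−0.93 log2), against the 29.9% of all tested genes that were lower. The tryptophanyl-tRNA synthetase Wars, which was kept in the tryptophan list and is not in that count, rose from 176, 176, 180.2, 149 and 118 to 333, 327, 311, 357 and 344 CPM (1.05 ± 0.15 log2, edgeR adjusted p = 4.5e-06), with groups that did not overlap. In the heat shock list 2 genes rose, the inducible co-chaperones Bag3 (0.51 ± 0.1 log2) and Dnajb1 (0.69 ± 0.14 log2). Npm1, a nucleolar chaperone, read 2216, 2098, 2187, 1998 and 2011 CPM and then 853, 925, 922, 638 and 559 CPM (−1.47 ± 0.15 log2, edgeR adjusted p = 8.4e-08), and the methyltransferase Fbl, fibrillarin, fell by 1.53 ± 0.15 log2. Vars, valyl-tRNA synthetase, fell from 429.8, 427, 428, 354 and 391 to 90.4, 95, 99.9, 106 and 66.1 CPM (−2.16 ± 0.19 log2). Hspd1, the mitochondrial chaperonin, fell from 1684, 1645, 1639.6, 863 and 919 to 472, 484, 489.8, 192 and 255 CPM (−1.88 ± 0.18 log2). In batches 2 and 3 alone, with 2 libraries a group, 19, 8 and 9 members of these lists fell. By contrast Ddit3, the CHOP factor of the unfolded protein response, rose from 8.83, 9.54, 9.36, 12.4 and 18.7 to 62.9, 67.8, 61.8, 197 and 118 CPM (3.02 ± 0.28 log2, edgeR adjusted p = 3.9e-08).

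Mitotic genes fell almost without exception, 31 of 32 at a median of −2.13 log2, and the fall was deeper in batches 2 and 3 (medians −1.67, −2.84 and −3.47 log2). Aurka, a mitotic kinase, fell from 121, 115, 129, 62.9 and 60.4 to 19.3, 21.8, 22.4, 11.6 and 9.34 CPM (−2.53 ± 0.14 log2, edgeR adjusted p = 4.7e-11). Mki67, a proliferation marker, read 433, 446, 388, 261 and 265 CPM and then 169, 177, 174, 54 and 16.9 CPM (−1.83 ± 0.31 log2), with −1.28, −2.27 and −3.96 log2 within batches. In these bulk samples fewer dividing cells and less RNA per cell cannot be told apart. Genes of the G1 phase were mixed, 5 up and 9 down of 23: the inhibitors Cdkn1a and Cdkn2b rose, Cdkn1a from 52.3, 55.8, 57.5, 81.7 and 81.1 to 116, 125, 127, 111 and 127 CPM (0.91 ± 0.12 log2) and Cdkn2b by 2.48 ± 0.34 log2. Cdk4 fell by 1.22 ± 0.14 log2, and cyclin D1 (Ccnd1) rose from 136 ± 25.2 to 250.3 ± 64.3 CPM (0.93 ± 0.2 log2).

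**Figure D4:**
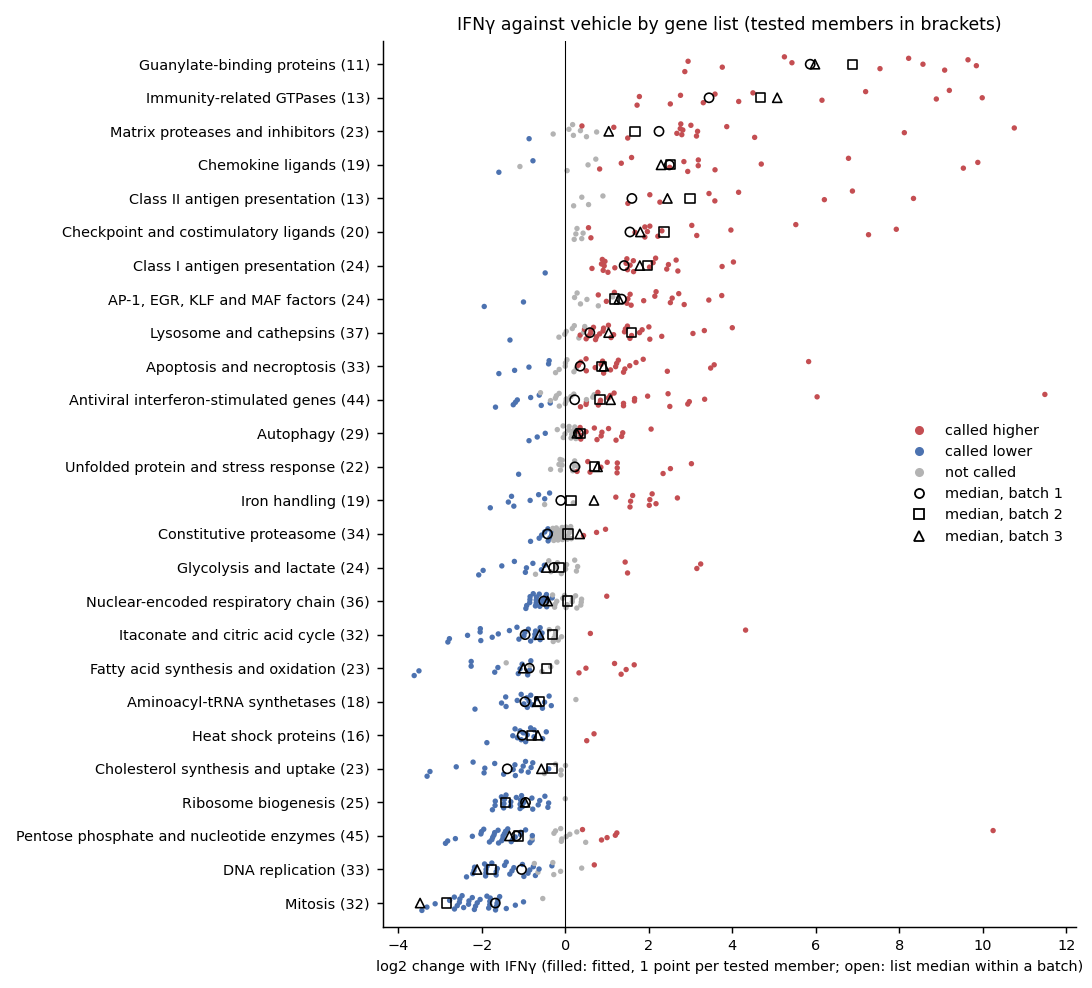
Fitted log2 change with IFNγ of each tested member (points, coloured by call) of 26 gene lists ordered by their median, with the list median within each batch as open symbols. Guanylate-binding proteins are at the top and mitosis at the bottom, the batch medians of the cholesterol and citric acid cycle lists lie closer to 0 in batches 2 and 3 than in batch 1, and those of the constitutive proteasome lie on both sides of 0.

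Markers of homeostatic microglia fell in part, 10 of 21 tested, while 7 rose. Cx3cr1, the fractalkine receptor, fell from 116, 118, 106, 38.2 and 53.2 to 1.11, 0.753, 0.387, 1.17 and 1.73 CPM. P2ry12, a purine receptor that steers microglial processes, was low in this line throughout and fell from 5.87, 7.33, 5.32, 5.59 and 5.04 to 2.85, 2.82, 2.05, 1.33 and 1.42 CPM (−1.54 ± 0.28 log2, edgeR adjusted p = 0.0001). Entpd1, the ectoenzyme CD39 of the same marker set, rose from 14, 15.5, 15.5, 52.5 and 59.2 to 322, 329, 308, 1256 and 580.3 CPM (4.22 ± 0.3 log2). Csf1r, the survival receptor, fell by 0.53 ± 0.17 log2 (edgeR adjusted p = 0.01), with −0.9, 0.19 and −0.23 log2 in the batches, so that its sign in batch 2 was opposite to that in batch 1.

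Adhesion genes mostly rose. Itga5, the fibronectin receptor chain, rose from 85.7, 83.3, 84.4, 87.8 and 109.8 to 405, 384, 376, 714 and 707 CPM (2.46 ± 0.21 log2), and Itga4, a chain of the VCAM1 receptor, fell from 237, 252, 193, 160.4 and 189.6 to 37.4, 37.8, 34.8, 34.6 and 22.3 CPM (−2.61 ± 0.2 log2, edgeR adjusted p = 4.1e-09). Plaur, the urokinase receptor, rose from 45.4, 41.9, 54.2, 65.4 and 73.4 to 748, 746, 695, 3518 and 2245 CPM (4.53 ± 0.35 log2), and the crosslinking enzyme Tgm2 by 3.17 ± 0.23 log2. Of 23 integrin and adhesion genes 15 rose and 3 fell. Rgs10, the gene targeted in the knockout line, read 55.1, 59.9, 64.5, 73 and 62.7 CPM and then 23.3, 22.2, 23.7, 49.97 and 28.7 CPM (−1.17 ± 0.17 log2), and Rgs1 rose from 11.1, 16.4, 17, 16.7 and 29.2 to 1117, 1084, 1004, 1483 and 2746 CPM (6.3 ± 0.4 log2, edgeR adjusted p = 3.5e-10).

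Long noncoding genes moved apart from protein-coding ones. Of 1231 tested genes of long noncoding classes 40.5% rose and 8.29% fell, with a median of 0.86 log2, while 27.7% of 11740 protein-coding genes rose and 33.1% fell, with a median of −0.05 log2. The noncoding medians were 0.92, 0.46 and 0.40 log2 in batches 1 to 3. In batch 1, 17227 to 17866 genes had a read in a vehicle library and 19591 to 20340 in an IFNγ library. In batches 2 and 3 these numbers were 17120 and 17450 under vehicle and 16946 and 16784 with IFNγ. The part of detection in the noncoding shift was not tested. Antisense genes rose in 147 and fell in 19 of 340 cases, and genes at bidirectional promoters rose in 39 of 66 with none lower. The sources used here do not say whether counting used strand, and reads of an antisense gene and its partner may not be separated. Nuclear RNAs moved the same way: Neat1, the scaffold of paraspeckles, read 58.9, 40.7, 34, 131 and 104 CPM and then 216, 258, 247, 2525 and 1258 CPM (2.94 ± 0.39 log2, edgeR adjusted p = 3.2e-06), and the replication-dependent histone gene Hist1h2bc 27.3, 28.2, 31.2, 37.8 and 52.9 CPM and then 79.2, 79.7, 79.5, 402 and 244 CPM. Both were highest in the IFNγ library of batch 2, and their part in the noncoding result was not tested.

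For 4 genes the response was set beside that of the line labelled as knockout, which still held Rgs10 reads (28.2 to 24.4 CPM from vehicle to IFNγ). There 6.50% of all tested genes were called for a difference of the responses. Batf2 rose by a larger fold in that line from a lower vehicle level (a difference of 3.36 ± 0.44 log2, edgeR adjusted p = 0.0002). Its mean went from 0.257 to 40.3 CPM there, below the 50.3 ± 5.26 CPM of wild-type cells with IFNγ. Psmb9 also rose by a larger fold there (a difference of 1.06 ± 0.21 log2, edgeR adjusted p = 0.0044), but to a higher mean. It went from 34.3 to 200 CPM in that line and from 45.4 to 128 CPM in wild-type cells. Cd74 and Cd274 rose less there, with differences of −1.77 ± 0.39 and −1.63 ± 0.4 log2 (edgeR adjusted p = 0.0096 and 0.02). The differences of Batf2, Psmb9, Cd74 and Cd274 were called in 23, 21, 20 and 19 of 23 alternative settings. The number of genes called depended on the batches: it was 7096 in batch 1 alone and 121 in batches 2 and 3 alone, against 894 with all libraries.

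Set per kilobase of transcript, the most abundant messages changed places. B2m, the light chain of class I, went from 8145 ± 690.2 to 30017 ± 5562 (length-scaled level, mean ± SD, n = 5) and from rank 4 to 1 among all genes. Psap, the precursor of lysosomal saposins, went from rank 35 to 3, Gbp2 from rank 8206 to 9 and Cd74 from rank 240 to 15. The elongation factor Eef1a1 dropped from rank 2 to 23 (16270 ± 1964 to 4038 ± 876) and Npm1 from rank 27 to 144. Spp1, osteopontin, kept a place near the top at 19503 ± 6674 to 21583 ± 9838, with SDs larger than its difference. Lengths are those of all exons of a gene in GENCODE vM21, so genes with short main isoforms are understated on this scale.

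**Figure D5:**
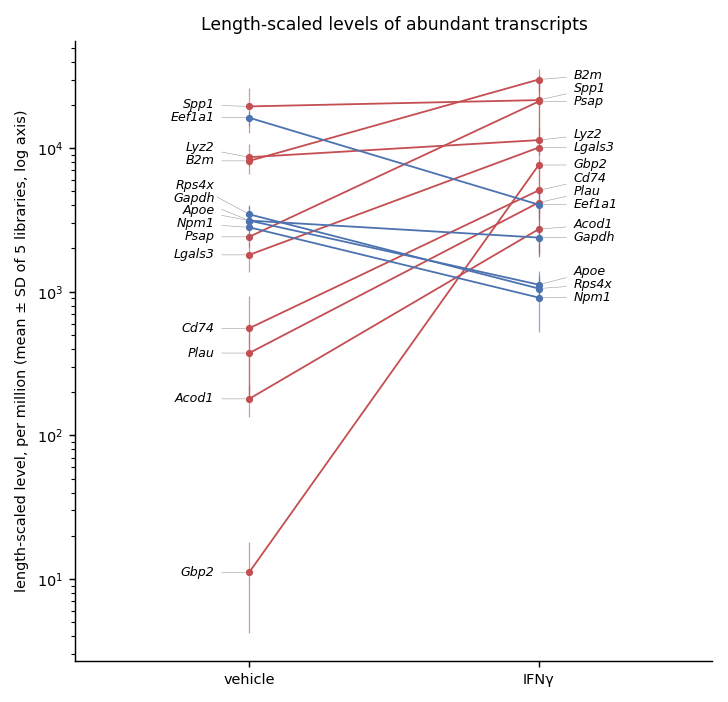
Length-scaled levels (log axis, counts per kilobase scaled to the same total in each library, mean ± SD of 5 libraries) of 14 abundant transcripts under vehicle and IFNγ. Red lines rise and blue lines fall: Gbp2 rises the most of the 14, and Eef1a1, Npm1, Apoe and Rps4x are among those lower with IFNγ.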

How the data were processed

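Values were raw counts per gene as deposited by the authors, 1 column per library, with no column left without a library. Per the submitters' processing notes, FastQC, Trim Galore, STAR, DESeq2 and the genome build GRCm39 were used; the sources used here do not give the counting tool, strand setting or annotation. Symbols, biotypes, lengths and gene order came from GENCODE vM21 on GRCm38, which named 51948 of 56941 IDs (91.2%). The 10 libraries were compared in edgeR 4.0.16 (R 4.3.3): TMM scaling, filterByExpr over 4 groups (13755 genes), a robust quasi-likelihood model of all 20 libraries with group and batch (14 residual degrees of freedom), and Benjamini-Hochberg adjustment with a threshold of 0.05. "Rose", "fell" and "called" refer to it. The biological coefficient of variation was 24.2%. Changes within a batch are differences of log2 CPM with a prior count of 2. Members of 63 gene lists (1336 genes, 1176 tested) and a panel were chosen with earlier results of these data known. Named genes are the panel, the 10 largest called changes each way (1 CPM or more in either group, same sign in all same-numbered pairs) and up to 3 called members each way per list by smallest p; of the 298 so named, those in the text were chosen after seeing values. Same-numbered libraries were checked for pairing: within batch 1 their deviations correlated at −0.00787 to 0.0397, so numbers were not taken as pairs. Counts were also simulated for the tested genes from their vehicle means, with no difference between batches and with rises planted in a small set of genes only. There edgeR found 38.8% of genes changed by 1.5-fold, 74.6% by 2-fold and 100% by 4-fold. It called 0.039% of unchanged ones, a rate that need not hold for the real libraries. Alternatives covered scaling, filter, DESeq2 1.42.0, limma-voom (limma 3.58.1), covariates, batches and single libraries. One panel gene did not pass the filter. Some genes are not reported here.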

Additional observations from a re-analysis of the deposited data

Results flagged for a closer look

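In 35 of 276 groups of 5 libraries of the genes named in the text, 1 library stood far from the other 4, by a gap over the range above Dixon's critical value of 0.71. Chance gives about 1 in 20 for libraries that vary alike, a rate that need not hold here, since 3 of the 5 share a batch. The far library came from batch 2 in 18 cases, from batch 3 in 17 and from batch 1 in 0. The IFNγ library of batch 2 lay above the others for Ass1 at 351 CPM, Coro1a at 267 CPM, Csf1r at 611 CPM, Cxcl9 at 807 CPM, Entpd1 at 1256 CPM, H2-Eb1 at 1068 CPM, Itgax at 489 CPM, Pfkm at 20.3 CPM, Ptgs1 at 25 CPM and Rgs10 at 49.97 CPM. The IFNγ library of batch 2 lay below the others for C3ar1 at 156 CPM, Cxcl10 at 23.3 CPM, Dnajb9 at 39.1 CPM, Myc at 2.03 CPM and Psmb9 at 111 CPM. The IFNγ library of batch 3 lay above the others for Casp4 at 170.2 CPM, Ifngr2 at 161 CPM, Rgs1 at 2746 CPM, Slfn2 at 1258 CPM, Socs1 at 123 CPM, Tgm2 at 204 CPM and Tnfaip3 at 298 CPM. The IFNγ library of batch 3 lay below the others for Fh1 at 33.7 CPM, Itga4 at 22.3 CPM and Paics at 121 CPM. The vehicle library of batch 2 lay above the others for Malat1 at 152 CPM. The vehicle library of batch 2 lay below the others for Acod1 at 70.8 CPM and Bag3 at 41.2 CPM. The vehicle library of batch 3 lay above the others for Arg1 at 19.7 CPM, Cdkn2b at 3.53 CPM, H2-Eb1 at 1.85 CPM, Itga5 at 109.8 CPM, Ptgs1 at 104 CPM, Tgm2 at 37.4 CPM and Upp1 at 0.617 CPM.

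For 41 of the 139 genes given in the text the change with IFNγ differed between the lines labelled as RGS10 knockout and wild type. The test was that of the difference itself in edgeR (adjusted p under 0.05), which called 6.50% of all tested genes. The genes of the text were picked largely for a clear response in these wild-type libraries. Such a choice can by itself draw the difference towards a smaller change in the knockout line. The count and its direction are therefore no independent support. Values are knockout minus wild type in log2. Among genes with a rise in wild-type cells, the rise was smaller in the knockout line for Bcl2a1d (−1.01), C3ar1 (−1.51), Cd274 (−1.63), Cd74 (−1.77), Ddit3 (−1.72), Gabarapl1 (−0.85), Gla (−0.47), Hk3 (−0.996), Hmox1 (−1.21), Itga5 (−1.11), Osm (−0.92), Pfkfb3 (−1.68) and Plin2 (−2.57). The same held for Rgs1 (−2.26), Rhoc (−1.54), Sqstm1 (−0.902), Tapbpl (−1.34) and Upp1 (−2.28). It was larger there for Batf2 (3.36), Psmb9 (1.06), Slamf7 (1.27) and Slamf8 (1.31). Among genes lower with IFNγ in wild-type cells, the change in the knockout line was less negative or above 0 for Acat2 (1.57), Aurka (1.8), Cfp (1.33), Gatm (1.12), Gusb (0.69), Idh1 (1.37), Itga4 (1.21), Klf2 (2.81), Kmo (3.51), Me2 (0.74), Mrc1 (1.37), P2ry12 (1.54) and Pfkm (0.93). The same held for Rgs10 (0.84), Scd2 (2.18), Slfn5 (1.82), Tlr8 (3.27) and Vars (1.25). It was more negative there for Ccl9 (−1.2). Some of the genes lower in wild-type cells started from unlike levels. Vehicle means in wild-type and knockout lines were 11.4 and 0.649 CPM for Tlr8, 5.83 and 1.61 CPM for P2ry12, and 6.79 and 2 CPM for Kmo. They were 112 and 10.9 CPM for Mrc1, but 4.07 and 47.9 CPM for Slfn5 and 1132 and 1135 CPM for Scd2. A gene near the floor has little room to fall, and the part of the starting level was not tested. Of 23 alternative settings, the fewest that kept the call were 11 for Gusb, 12 for Rgs10, 13 for Slamf7, 15 for Pfkm and 16 for Gla, and the other genes kept it in 17 or more.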

How the results depend on the processing

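Of the called genes in the text, 116 of 134 kept their call and direction in all 24 alternative settings. The count of genes called in wild-type cells, 8101, lay between 6613 and 10242 with other scalings, filters, tools and covariates or in batch 1 alone, and between 7593 and 8192 when 1 library was left out (3745 to 4054 higher, 3848 to 4138 lower). It was 4262 when a change of at least 1.5-fold was tested (2192 higher, 2070 lower) and 5101 in batches 2 and 3 alone (2444 higher, 2657 lower), where fewer libraries remain. With replicate number as a block in place of batch it was 7660. Same-numbered libraries of batch 1 did not pair, and the numbers 4 and 5 are the batches. The genes whose response differed between the lines, 894 in all, ranged from 651 to 1280 without 1 library. They were 537 with plain library totals, 1480 by DESeq2, 138 with no batch term, 530 with the replicate block, 103 with a minimum fold, 7096 in batch 1 alone, 121 in batches 2 and 3 alone, 1906 without batch 2 and 1631 without batch 3. The cause was not tested. In batches 2 and 3 alone Csf1r showed no change (0.014 log2, edgeR adjusted p = 0.98). Arg1 and Spi1, neither called over all libraries, differed in sign between the batches. Arg1 was 2.29 log2 in batch 1 alone and −1.66 log2 in batches 2 and 3 alone, and Spi1 −0.40 and 1.05 log2. Of 124 list counts 52 stayed within 1.5 times in all settings. Promoter shares for genes changed by more than 1 log2 are not given, since windows were found for 77.9% of those higher and 78.5% of those lower, under the 80% asked for. The 10 ng/mL dose and 48 h were single points, and 3 counts over the vehicle group equal 0.0308 CPM, below which no level is known.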

Other observations

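Further gene groups changed that belong to none of the comparisons above. Of 17 tested complement genes 11 rose and 1 fell. C3ar1, the receptor for the C3a fragment, read 119.9, 143, 129, 54.5 and 68.5 CPM under vehicle and 732, 720.5, 682, 156 and 723 CPM with IFNγ (2.49 ± 0.24 log2, edgeR adjusted p = 7.1e-08), and the integrin chain Itgax rose by 2.74 ± 0.4 log2. Properdin (Cfp), which stabilises the alternative pathway, was the member that fell (−0.95 ± 0.23 log2, edgeR adjusted p = 0.0014), with a value above 0 in batch 2 (−1.36, 0.45 and −1.01 log2 in batches 1 to 3). Schlafen and TRIM genes rose in 13 of 19 cases and fell in 2: the growth-restraining Slfn2 went from 211, 203, 241, 88.4 and 113 to 459.5, 434, 444, 572 and 1258 CPM (1.89 ± 0.3 log2), while Slfn5 fell from 3.34, 5.3, 3.4, 2.42 and 5.89 to 1.06, 0.688, 0.387, 0.156 and 1.11 CPM (−2.55 ± 0.27 log2, edgeR adjusted p = 1.7e-07). In the stress response list 11 of 22 rose, Dnajb9, a chaperone of the endoplasmic reticulum, by 2.34 ± 0.19 log2, and Asns, asparagine synthetase, was the member that fell (−1.12 ± 0.23 log2).

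Genes of the p53 pathway stood 7 up and 6 down of 20, shares near the 29.0% and 29.9% of all tested genes. Mdm2, which targets p53 for degradation, rose from 78.5, 79.5, 76.3, 70.8 and 80.8 to 304, 301, 283, 349 and 338 CPM (2.01 ± 0.16 log2, edgeR adjusted p = 7e-09), and Trp53 itself fell from 417, 384, 420.2, 251 and 221 to 158, 167, 171, 79 and 127 CPM (−1.27 ± 0.16 log2, edgeR adjusted p = 1.7e-06). The antioxidant list rose in 10 and fell in 5 of 28 cases, or 9 and 10 with plain library totals, and in batch 1 alone 14 fell. Of 36 actin cytoskeleton genes 10 rose and 9 fell, with 23 lower in batch 1 alone and 3 in batches 2 and 3 alone. Rhoc, a GTPase of stress fibres, rose by 2.33 ± 0.17 log2, and Coro1a, which binds actin in leukocytes, fell by 0.95 ± 0.14 log2.

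Some genes that changed lay in runs along the chromosomes, a feature chosen after the values were seen and given with no test. Most of the 2270 genes called higher by more than 1 log2 and of the 1873 called lower by as much lay in no such run. The number of runs that gene order alone would give was not estimated. By GENCODE vM21 order on GRCm38, 27 runs of 5 or more neighbouring tested genes rose by more than 1 log2 each, and 1 run fell. A run of 12 on chromosome 11 joined Irgm1, Tgtp1 and Ifi47 at a median of 2.69 log2, a run of 6 on chromosome 5 held Gbp8 to Gbp11 (6.83 log2), and a run of 5 on chromosome 3 held Gbp5 to Gbp2 (7.54 log2). A run of 8 on chromosome 6 held the lectin genes from Clec12b to Olr1 and ended in Gabarapl1 (4.57 log2), and a run of 6 on chromosome 19 held Cd274 and Pdcd1lg2 (1.76 log2). A run of 8 histone genes on chromosome 13 (2.33 log2) belonged to a class whose reads were highest in the IFNγ libraries of batches 2 and 3, and the part of RNA quality in it was not tested. The run that fell held 6 genes on chromosome 10, Lta4h and Hal among them (−2.08 log2). Near-identical neighbours may share reads.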
